A study of Homo sapiens with 11 samples.

Results

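The suppressor of cytokine signalling (SOCS) family comprises 8 human genes, SOCS1 to SOCS7 and CISH. They were examined in MDA-MB-231 cells, an established human triple-negative breast cancer (TNBC) line, with and without knock-down of the histone variant macroH2A1.1 (mH2A1.1). Members were chosen by gene name. The family was taken up because SOCS4 was lower in the knock-down (KD) libraries of these same data, so SOCS4 values are given as a description with no test. Of the 23167 genes in the count tables, 7 are members. SOCS7 is not analysed here at the RNA level and was followed in the peak lists alone. After a filter on low counts, 6 members were among the 10963 genes tested, and 5 of them are not SOCS4.

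SOCS proteins are brakes on cytokine signalling. A cytokine binds its receptor, Janus kinases (JAKs) phosphorylate the receptor and STAT transcription factors, and STATs switch on target genes that include several SOCS genes, which closes a negative feedback loop. Each SOCS protein carries an SH2 domain that binds phosphotyrosine and a SOCS box that recruits elongins and CUL5, through which bound proteins are ubiquitylated. SOCS1, SOCS2, SOCS3 and CISH are the cytokine-induced members, while SOCS4 to SOCS7 are better known for action on receptor tyrosine kinases and their adaptors.

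RNA-seq of total RNA was available for 2 wild-type (WT) and 2 KD libraries, taken at day 3. KD cells received siRNA against mH2A1.1 at 11 nM, and WT cells received the transfection reagent without any siRNA (0 nM), so loss of mH2A1.1 and exposure to an siRNA cannot be told apart. No source used here says that the 2 libraries of a condition came from separate cultures, so p-values measure the spread between these libraries, which may be technical. ChIP-seq of untreated cells was available as 1 library for mH2A1.1 and 1 for mH2A1, which stands for both splice isoforms.

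The libraries differed in depth. Counts on genes totalled 9794674 and 7856892 in WT, and 5584962 and 2309549 in KD. KD replicate 2 held 30 counts on chromosome 21 and 0 on chromosomes 22 and X, which carry no SOCS gene, and genes of these chromosomes were left out of the test. MACROH2A1 (ENSG00000113648), the gene targeted, stood at 385 and 394 CPM (counts scaled to library size with TMM factors) in WT and at 274 and 300 in KD, a log2 fold change of -0.44 (SE 0.173, edgeR adjusted p = 0.205). Gene counts do not separate its isoforms, so this value is no direct check of mH2A1.1. Of the 5 mesenchymal markers, VIM stood at 2315 and 2506 CPM in WT and 2978 and 4726 CPM in KD, CD44 between 1319 and 1408 CPM in all libraries, and ZEB1 at 165 and 151 CPM in WT and 133 and 120 CPM in KD. SNAI2 stood at 54.9 and 59.8 CPM in WT and 54.2 and 70.9 CPM in KD, and CDH2 between 2.21 and 3.29 CPM in all libraries. The list summed to 3860 and 4040 CPM in WT and 4500 and 6330 CPM in KD. ESR1 and PGR, which TNBC cells lack, had 0 counts in all libraries. ERBB2, also in the receptor list, stood at 80.0 and 80.2 CPM in WT and 86.9 and 128 CPM in KD. Of the 5 epithelial markers, KRT8, KRT18 and KRT19 were higher in both KD libraries than in WT, an order that 32.5% of all tested genes showed. Their log2 fold changes were 1.08, 0.87 and 1.06 (edgeR adjusted p = 0.194, 0.194 and 0.176). DESeq2, an alternative test, called these 3 higher, where it called 11.3% of all genes. The summed level of the list, mostly these keratins, was 1120 and 1250 CPM in WT and 1890 and 2850 CPM in KD. CDH1, also epithelial, had 2 to 22 counts and EPCAM had a log2 fold change of 0.13 (edgeR adjusted p = 0.704). No immune marker passed the filter, with CD14 at no more than 31 counts in a library, and the endothelial markers summed to 3.26 to 5.86 CPM. The part of these marker shifts in the results below was not tested.

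Levels within the family were compared per kb of exon, since the transcripts differ in length. In WT, SOCS4 was the most abundant member at 15.0 and 14.2 CPM per kb. SOCS6 followed at 12.6 and 11.3 CPM per kb and SOCS3 at 10.7 and 10.3. These neighbours did not overlap between the WT libraries, and neither did SOCS5 (7.04 and 6.86 CPM per kb) with SOCS2 (2.86 and 2.27). SOCS1 lay at 1.82 and 2.06 CPM per kb, and CISH was close to absent at 0.125 and 0.234. Among all tested genes SOCS4 ranked at percentile 72.0 of the WT level, against 19.7 for SOCS1. In KD the order differed. SOCS4 stood lower in the order, at 8.05 and 5.30 CPM per kb, below SOCS3 (9.54 and 12.3) and SOCS6 (11.1 and 8.82), which overlapped each other. When levels were taken per kb of the whole gene instead of its exons, SOCS3 came first in WT at 8.70 and SOCS4 second at 4.61.

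**Figure D1:**
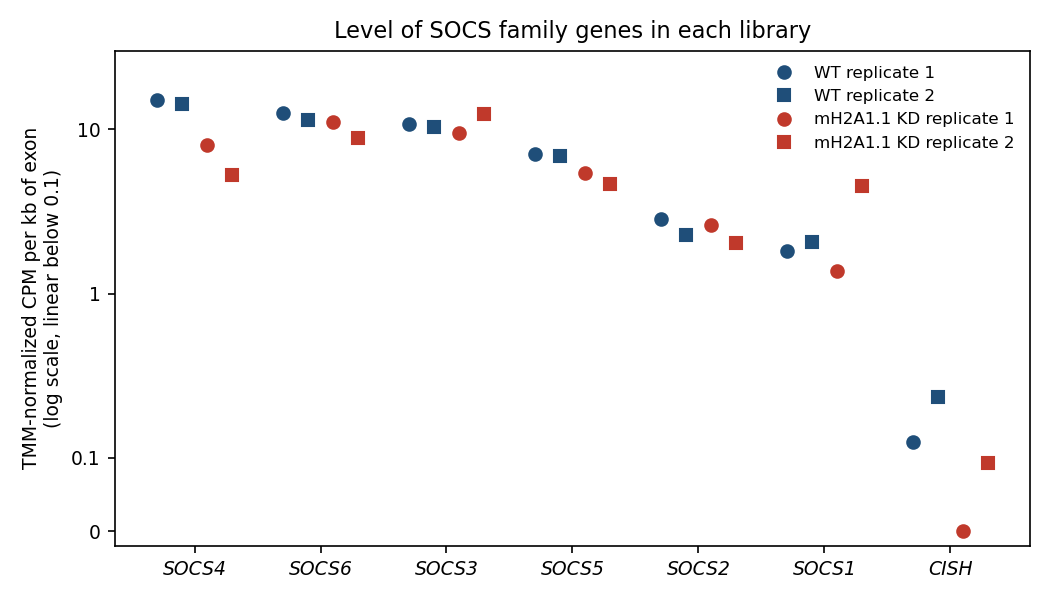
TMM-normalized CPM per kb of exon (y axis, log scale that turns linear below 0.1) of the 7 members with counts, in order of their WT level, with 1 point for each of the 4 libraries. SOCS4 was at 15.0 and 14.2 in WT and at 8.05 and 5.30 in KD, while the points of SOCS3, SOCS2 and SOCS1 overlap between conditions.

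SOCS4, an SH2 protein linked to degradation of the EGF receptor, was the member with the largest difference. SOCS4 (ENSG00000180008, GRCh38 chr14:55027230-55049489, plus strand) had 1004 and 759 counts in WT against 300 and 79 in KD. As CPM this was 106 and 99.8 in WT and 56.7 and 37.3 in KD. The conditions did not overlap, KD being lower, and the means were 103 ± 4.11 and 47.0 ± 13.7 CPM (SD, n = 2 each), so KD held 45.8% of the WT level. The log2 fold change was -1.10. It was -0.85 in KD replicate 1 and -1.45 in KD replicate 2, each taken against the WT mean, and 1.66% of tested genes had a lower log2 fold change. Among tested genes with exon GC of 31.0% to 40.4%, which include SOCS4, 7.31% were lower by more than 2-fold. As the gene that led to the choice of the family, SOCS4 gets no test. In bulk RNA, fewer expressing cells and less RNA per cell cannot be told apart.

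SOCS4 made up 37.3% and 37.7% of the summed CPM of the 7 members in WT and 27.4% and 20.9% in KD. The sum itself went from 283 and 265 CPM in WT to 207 and 179 in KD. Without SOCS4 it was 178 and 165 CPM in WT and 150 and 141 in KD. The KD sums were thus below WT with and without SOCS4, with a narrower gap when SOCS4, chosen for its low value, was left out. Among single tested genes 32.4% showed that order. The largest parts without SOCS4 were SOCS6 and SOCS5. With trends of exon length and GC content removed, their log2 fold changes were 0.28 and -0.16. SOCS6 took 25.9% and 24.8% of the sum in WT and 31.2% and 28.8% in KD, the largest share in both KD libraries. These shares are not scaled by length. Per kb of exon, SOCS3 (12.3) was above SOCS6 (8.82) in KD replicate 2.

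Calls were made for the 5 tested members other than SOCS4, and none of them was called. A call needed an edgeR adjusted p under 0.1 over all tested genes and a fold change over 1.5. None of the 5 passed, as the background share of all 10963 tested genes called by edgeR was 0.0% (0 genes, with 2540 at an unadjusted p under 0.05). An adjusted p from DESeq2 was available for SOCS3, SOCS5 and SOCS6, and it called none of these 3, against 11.3% of all genes to which it gave one. SOCS1 and SOCS2 got no adjusted p and could not be called by it. With each library's trends of exon length and GC content removed, edgeR called 5.36% of all genes and again none of the 5. KD libraries were both below WT for SOCS5 and SOCS6, where 32.4% of all tested genes showed that order. No member had KD libraries both above WT, where 32.5% of tested genes did.

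SOCS5 and SOCS6 belong, like SOCS4, to the members with a long N-terminal part. SOCS5 (ENSG00000171150, chr2:46698952-46780245, plus strand), the closest relative of SOCS4, stood at 52.7 and 51.4 CPM in WT and at 40.4 and 34.5 CPM in KD. The groups did not overlap, and the log2 fold change was -0.46 (95% interval -0.92 to -0.01, edgeR adjusted p = 0.212). With KD replicate 1 left out it was -0.60, a value that rests on a single KD library. Its whole span is overlapped on the same strand by LINC01118, which had at most 2 counts in a library. SOCS6 (ENSG00000170677, chr18:70289045-70330199, plus strand), which binds KIT, stood at 73.3 and 65.8 CPM in WT and at 64.6 and 51.5 CPM in KD. Its nearest WT and KD libraries were only slightly apart. The log2 fold change of SOCS6 was -0.25 (95% interval -0.72 to 0.22, edgeR adjusted p = 0.44).

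SOCS3 and SOCS1 bind JAKs and block their activity directly. SOCS3 (ENSG00000184557, chr17:78356778-78360077, minus strand), the brake on receptors that share gp130, had 29.1 and 28.3 CPM in WT and 26.1 and 33.6 CPM in KD. The KD libraries lay on either side of WT, with a log2 fold change of 0.03 (95% interval -0.48 to 0.54, edgeR adjusted p = 0.94). SOCS1 (ENSG00000185338, chr16:11254417-11256204, minus strand) was read from 31 and 28 counts in WT and 13 and 17 in KD, or 3.26, 3.68, 2.46 and 8.03 CPM. The KD libraries thus disagreed in direction, and the log2 fold change of 0.33 had a 95% interval from -0.93 to 1.58 (edgeR adjusted p = 0.705). With a single KD library left, SOCS1 stood at 1.21 without KD replicate 1 and at -0.48 without KD replicate 2. It lies on the opposite strand inside RMI2, and reads of the 2 genes may not be told apart where the counting ignored strand.

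SOCS2 and CISH act on growth hormone and related receptors, and CISH is a classical STAT5 target. SOCS2 (ENSG00000120833, chr12:93569814-93583487, plus strand) had 18.5 and 14.7 CPM in WT and 16.8 and 13.2 CPM in KD. The groups overlapped, with a log2 fold change of -0.12 (95% interval -0.70 to 0.47, edgeR adjusted p = 0.778). SOCS2-AS1 overlaps its first 1955 bp on the other strand and had at most 16 counts in a library. CISH (ENSG00000114737, chr3:50606489-50611774, minus strand) had 6 and 9 counts in WT and 0 and 1 in KD, and was under the filter. A count of 0 in KD replicate 1 allows up to 0.567 CPM (3 counts, counting error only), just under the 0.631 CPM of WT replicate 1, and 3 counts in KD replicate 2 would be 1.42 CPM. No fold change is given for CISH at this depth.

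GC content of the exons moved with the fold change over all genes and over the members. In 5 classes of tested genes of about equal size, the median log2 fold change went from -0.47 in the class of lowest GC (31.0% to 40.4%) through -0.22, 0.02 and 0.29 to 0.47 in the class of highest GC (56.9% to 73.8%). In the lowest class it was -0.25 for KD replicate 1 and -0.79 for KD replicate 2. SOCS4 (35.6% GC) and SOCS6 (37.4%) fall in that lowest class and SOCS5 (41.3%) in the next. SOCS2 (50.1%), SOCS3 (60.0%) and SOCS1 (69.1%) fall in the upper 2. SOCS4 lay below the median of its class in both KD libraries, and SOCS6 above it in both.

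**Figure D2:**
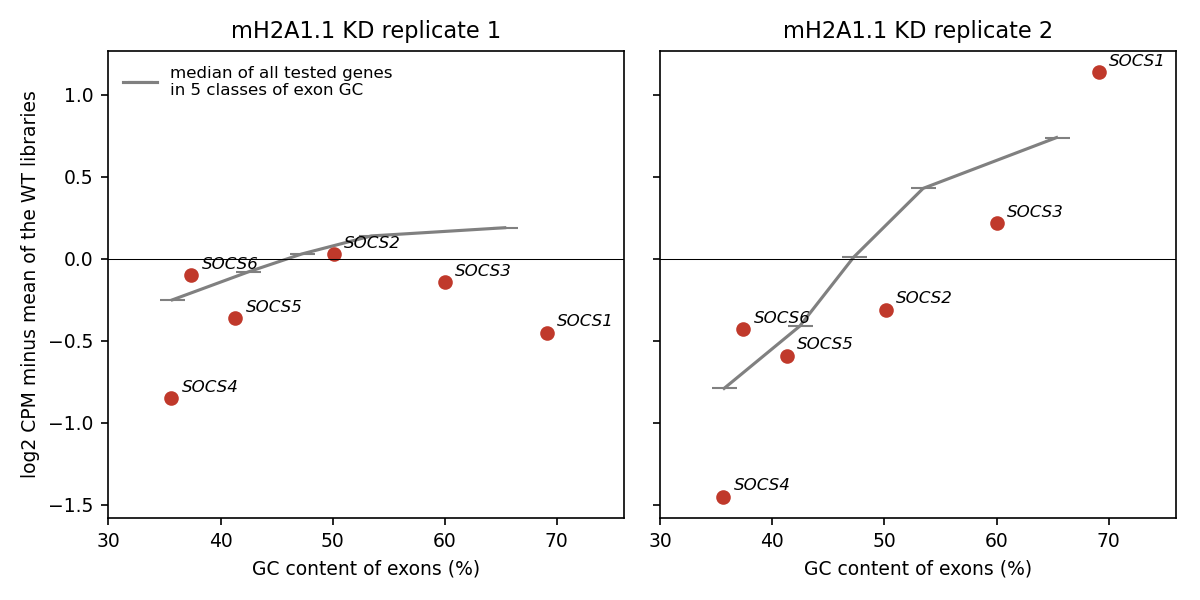
Log2 CPM of each KD library minus the mean of the WT libraries (y axis) against exon GC content (x axis, %) for the 6 tested members (red), with the median of all tested genes in 5 GC classes drawn at the middle of each class (grey). In KD replicate 2 the class medians run from -0.79 to 0.74, and SOCS4 sits at -1.45.

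With length and GC trends removed, the log2 fold change of SOCS4 was -0.49, against -1.10 without. That of SOCS5 was -0.16 (SE 0.118, edgeR adjusted p = 0.408). SOCS6 turned from -0.25 to 0.28 (SE 0.119, edgeR adjusted p = 0.189) and SOCS3 from 0.03 to -0.39 (SE 0.138, edgeR adjusted p = 0.135). SOCS1 turned from 0.33 to -0.26 (edgeR adjusted p = 0.673), and SOCS2 stayed negative at -0.21 (edgeR adjusted p = 0.55). Among the members SOCS4, chosen for its low value, was lowest with the correction too, with SOCS3 next at -0.39. The direction of SOCS6, SOCS3 and SOCS1 depended on this correction. What part of the SOCS4 difference goes with GC content beyond these values was not tested.

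**Figure D3:**
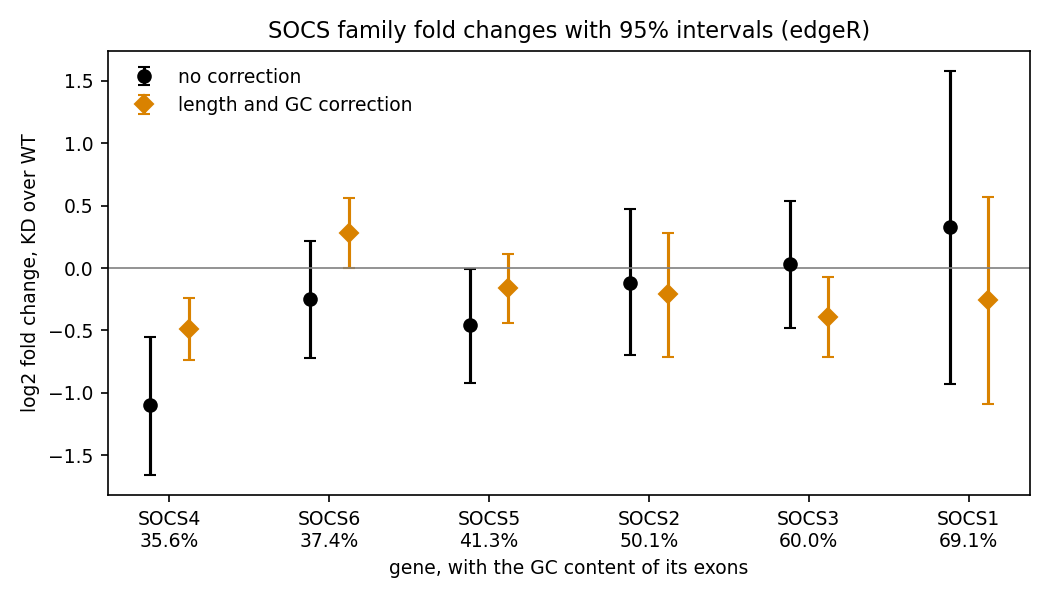
Log2 fold change, KD over WT, of the 6 tested members (y axis) in order of exon GC content, without correction (black circles) and with length and GC correction (orange diamonds), with 95% intervals from edgeR. SOCS4 is at -1.10 and -0.49, given as a description, and its intervals stand for no test. SOCS6, SOCS3 and SOCS1 change sign between the fits.

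The genes whose 4 libraries were most like SOCS4 were EEA1, TMX3, AASDHPPT, MEMO1 and NUF2. Likeness was the Euclidean distance between centred log2 CPM values over the 4 libraries, which was 0.033 for EEA1 and 0.06 for NUF2. Their log2 fold changes ran from -1.16 to -1.05, which the selection on these same values set in advance. Their exon GC ran from 33.8% to 39.6%. No other member was among them: SOCS5 ranked 2025 of 10962 genes in likeness, SOCS6 3113, SOCS2 3962, SOCS3 6176 and SOCS1 10351. These ranks restate the library values given above.

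The neighbours of SOCS4, named by position, were lower by less. WDHD1, a DNA replication factor gene, starts 125 bp from the SOCS4 start on the other strand. It stood at 117 and 104 CPM in WT and 90.1 and 69.5 CPM in KD, a log2 fold change of -0.46 (SE 0.202, edgeR adjusted p = 0.224) that was 0.01 with the correction. MAPK1IP1L, which starts past the end of SOCS4, stood at 334 and 315 CPM in WT and 292 and 217 CPM in KD, a log2 fold change of -0.35 (SE 0.206, edgeR adjusted p = 0.316) that was 0.04 with the correction. Neither neighbour was called, where edgeR called 0.0% of all tested genes. Both were lower in the 2 KD libraries than in WT, an order that 32.4% of tested genes showed.

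Peaks of mH2A1.1 and mH2A1 in untreated cells showed where the histone variant was enriched over input. An mH2A1.1 peak lay within 500 bp of the transcription start site (TSS) of 5 of the 8 members (SOCS1, SOCS2, SOCS3, SOCS5 and CISH), where 37.8% of 23061 annotated genes had one. For mH2A1 it was 4 of 8 (SOCS1, SOCS2, SOCS3 and CISH), against 21.2% of all genes. Common peaks, mH2A1.1 peaks that share at least 1 bp with an mH2A1 peak, lay at the same 4, against 23.8% of all genes. SOCS5 alone had an mH2A1.1 peak there without mH2A1, which 14.0% of all genes had. With 1 library for each antibody and 8 genes, these shares have no replicate check. The 4 members with common peaks are the cytokine-induced ones.

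SOCS1 and SOCS3 lay entirely inside wide mH2A1.1 peaks. The mH2A1.1 peak over SOCS1 spanned 57000 bp (chr16:11226001-11283000), of which 39000 bp were shared with mH2A1. That over SOCS3 spanned 147000 bp (chr17:78240001-78387000), of which 126000 bp were shared. The median peak of either list was 3000 bp, the size of 1 calling bin, and 9.3% of mH2A1.1 peaks were of 24 kb or more. The CISH start lay in a peak of 12000 bp (chr3:50610001-50622000) that covered 33.6% of the gene, and the whole gene lay in an mH2A1 peak of 42000 bp (chr3:50586001-50628000). MAPKAPK3, a kinase gene on the other strand, starts 254 bp from the CISH TSS under the same mH2A1.1 peak. It stood at 97.8 and 115 CPM in WT and 150 and 200 CPM in KD, a log2 fold change of 0.71 (SE 0.213, edgeR adjusted p = 0.194, DESeq2 adjusted p = 0.0769) that was 0.31 with the correction (edgeR adjusted p = 0.112). Per kb of exon, its mean WT level of 27.2 CPM was far above the 0.179 CPM of CISH. SOCS2 had a single bin that began 187 bp after its TSS (chr12:93570001-93573000). At SOCS5 a single bin covered the TSS (chr2:46698001-46701000), and another peak of 6000 bp lay over the end of the gene (chr2:46779001-46785000).

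SOCS4, SOCS6 and SOCS7 had no peak of either list at the TSS or within the gene. The nearest mH2A1.1 peak to the SOCS4 start was a single bin without mH2A1 (chr14:55050001-55053000) that began 22771 bp after it, past the end of the gene, and covered the start of MAPK1IP1L. The nearest mH2A1 peak began at 43771 bp. For SOCS6 the nearest mH2A1.1 peak was 150956 bp away, and an mH2A1 peak of 3000 bp ended 2045 bp before the TSS. For SOCS7 (ENSG00000274211, chr17:38351844-38405593, plus strand), the nearest peaks were 473844 bp (mH2A1.1) and 464844 bp (mH2A1) away. How peaks relate to the fold changes of the members was not tested.

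**Figure D4:**
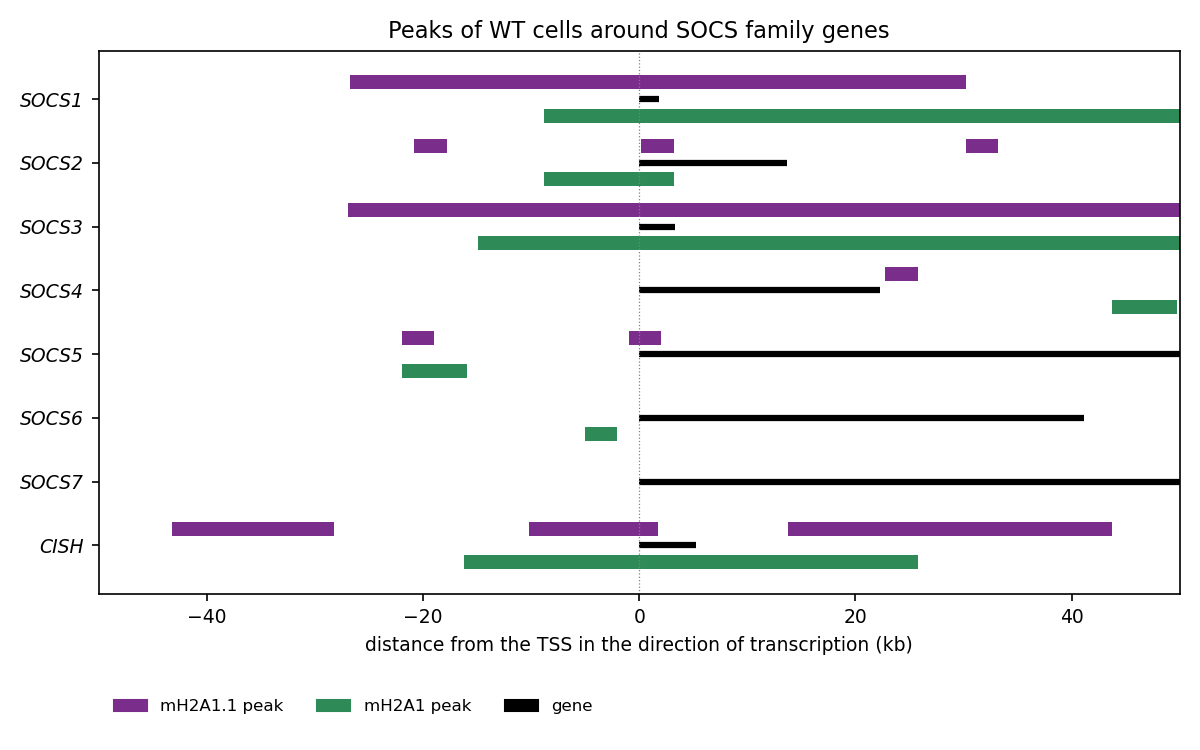
Peaks of mH2A1.1 (purple) and mH2A1 (green) in WT cells near the 8 members, against distance from the TSS in the direction of transcription (kb). Each gene is a black bar, and all bars are drawn only up to the window's edge at 50 kb. Some peaks farther from a gene are left out even inside the window. For SOCS3, an mH2A1.1 peak without mH2A1 at 38924 bp from the TSS is not drawn. SOCS1 and SOCS3 lie inside wide peaks of both lists, and no peak touches SOCS4, SOCS6 or SOCS7.

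Promoter windows are described for CISH, SOCS1, SOCS4 and SOCS6. The SOCS3 windows lie around starts other than the TSS used here, held no STAT motif and are not shown. Promoters of SOCS2, SOCS5 and SOCS7 were not analysed here. Sequences are shown for CISH, which held STAT motifs, for SOCS1, in a wide mH2A1.1 domain, and for SOCS4. They are from RefSeq on GRCh38.p14, run from 250 bases before to 50 bases after the start, and are written 5′ to 3′ on the gene's strand. Capitals mark matches to TTCNNNGAA, the palindrome that STAT dimers bind, which reads the same on both strands. CISH is chr3:50611725-50612024 (minus strand), SOCS1 is chr16:11256155-11256454 (minus strand) and SOCS4 is chr14:55026986-55027285 (plus strand).
CISH: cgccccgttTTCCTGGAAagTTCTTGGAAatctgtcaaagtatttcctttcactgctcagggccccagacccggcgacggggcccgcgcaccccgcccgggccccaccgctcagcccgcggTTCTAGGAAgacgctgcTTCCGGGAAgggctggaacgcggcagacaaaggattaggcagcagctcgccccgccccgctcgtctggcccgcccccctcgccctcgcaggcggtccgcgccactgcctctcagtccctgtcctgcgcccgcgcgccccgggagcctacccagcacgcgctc
SOCS1: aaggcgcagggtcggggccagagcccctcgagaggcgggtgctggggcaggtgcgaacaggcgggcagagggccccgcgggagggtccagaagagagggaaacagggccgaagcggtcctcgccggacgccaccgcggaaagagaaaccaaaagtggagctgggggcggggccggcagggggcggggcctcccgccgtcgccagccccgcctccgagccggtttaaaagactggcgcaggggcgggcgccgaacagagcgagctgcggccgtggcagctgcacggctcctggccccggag
SOCS4: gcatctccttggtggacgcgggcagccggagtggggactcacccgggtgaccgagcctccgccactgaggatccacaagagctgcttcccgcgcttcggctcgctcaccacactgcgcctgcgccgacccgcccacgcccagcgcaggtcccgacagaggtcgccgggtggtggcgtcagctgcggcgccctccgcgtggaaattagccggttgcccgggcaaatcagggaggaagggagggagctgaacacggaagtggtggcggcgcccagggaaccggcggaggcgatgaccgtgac

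The CISH promoter held 4 matches, which began at -241, -230, -129 and -112 from the start, in a window under an mH2A1.1 peak. Of 35116 promoters in the same collection, 7.66% held at least 1 match. The SOCS1 and SOCS4 windows held none, and neither did that of SOCS6 (chr18:70288795-70289094). All 4 windows were GC-rich and dense in CpG, with 70.3% GC and 33 CpG for SOCS4 and 81.3% GC and 47 CpG for SOCS6, against medians of 58.7% and 14 over all promoters. The GC-rich start of SOCS4 thus stood beside exons of 35.6% GC. A match is a description of letters and not of binding.

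Around the family, 145 genes of the pathway were followed in 10 lists, of which 84 were tested. The edgeR test called 0 of the 84, with 13 lower and 8 higher at an unadjusted p under 0.05. DESeq2 gave 60 of them an adjusted p and called 4 lower and 2 higher, and edgeR with the correction 5 lower and 1 higher, in fits that called 11.3% and 5.36% of all genes. Where a list had no call, genes among its 2 of highest mean CPM are named below.

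Among ligands and receptors, IL6 and its signalling receptor IL6ST had lower values in both KD libraries, without a call by edgeR alone. IL6 stood at 102 and 93.8 CPM in WT and at 50.8 and 58.1 CPM in KD. Its log2 fold change was -0.85 (SE 0.185, edgeR adjusted p = 0.183), and -0.79 with the correction (edgeR adjusted p = 0.0281). The groups of IL6 were far apart, and DESeq2 called it at an adjusted p of 0.0317. CLCF1, another ligand of the gp130 group, was at 0.24 (edgeR adjusted p = 0.55). IL6ST, which encodes gp130, went from 960 and 892 CPM in WT to 576 and 361 CPM in KD, a log2 fold change of -0.98 (SE 0.25, edgeR adjusted p = 0.194). DESeq2 called IL6ST lower (adjusted p = 0.0131). With the correction it was -0.41, under the fold change needed, in a gene of 36.3% exon GC. OSMR, which pairs with gp130, was at -0.08 (edgeR adjusted p = 0.776). The medians were -0.12 over 8 tested ligands and -0.18 over 6 receptors of the gp130 group, against 0.01 over all tested genes. With the correction they were -0.09 and 0.10, so that of the receptors turned in sign. Of the 7 other cytokine receptors tested, IL4R was at 0.50 and IFNGR1 at -0.25, with a median of -0.01.

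Of the 4 kinases and 7 STATs no gene was called by edgeR with or without the correction, nor by DESeq2 among the 2 kinases and 6 STATs to which it gave an adjusted p. JAK1 was at -0.18 and TYK2 at 0.63 (edgeR adjusted p = 0.558 and 0.21). STAT3, the main STAT of gp130 receptors, stood at 172 and 178 CPM in WT and 217 and 239 CPM in KD, a log2 fold change of 0.38 (edgeR adjusted p = 0.233). Both KD libraries were above WT for 6 of 7 STATs, where 32.5% of all tested genes showed that order, with a median log2 fold change of 0.29 that was 0.12 with the correction.

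The proteins that SOCS boxes recruit and the targets that SOCS proteins bind were mixed. CUL5, the cullin of SOCS ligases, is named for its role and was at -0.62 (edgeR adjusted p = 0.206), and at -0.01 with the correction. ELOB, an elongin, was at 1.08 (edgeR adjusted p = 0.205) with 262 CPM in KD replicate 2 against 78.0 to 96.2 CPM in the other libraries. DESeq2 called ELOB higher (adjusted p = 0.0575), and with the correction it was at 0.69 (edgeR adjusted p = 0.188). ARIH2, which works with CUL5, was at 0.10. Of the bound proteins, EGFR was at -0.21 (edgeR adjusted p = 0.454). IRS1, an insulin receptor adaptor, was at 0.73 (edgeR adjusted p = 0.194), and DESeq2 called it higher (adjusted p = 0.0674). With the correction IRS1 was at 0.54, under the fold change needed. WSB1 and WSB2, other SOCS box genes, were at -0.50 and -0.12 (edgeR adjusted p = 0.212 and 0.662). Of the STAT target genes, CCND1 was at -0.05 and HIF1A at -0.38, and the median of 13 was 0.01, or -0.28 with the correction.

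Other brakes on the pathway gave 2 of the 4 lower calls of DESeq2, among 10 brakes with an adjusted p. In that fit 445 of 7765 genes were called lower. PTPN11, which encodes the phosphatase SHP2, stood at 451 and 467 CPM in WT and 312 and 256 CPM in KD. Its log2 fold change was -0.69 (SE 0.187, edgeR adjusted p = 0.194, DESeq2 adjusted p = 0.0512). With the correction PTPN11 was at -0.54, under the fold change needed. PTPN1, another phosphatase, was at 0.15 (edgeR adjusted p = 0.578). SH2B3, which encodes the JAK2 inhibitor LNK, is named after its values were seen. It stood at 187 and 198 CPM in WT and 103 and 102 CPM in KD. Its log2 fold change of -0.91 (SE 0.173, edgeR adjusted p = 0.176) was -1.21 with the correction (edgeR adjusted p = 0.00888). SH2B3 was thus called in both alternative fits, with KD libraries that lay close together.

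**Figure D5:**
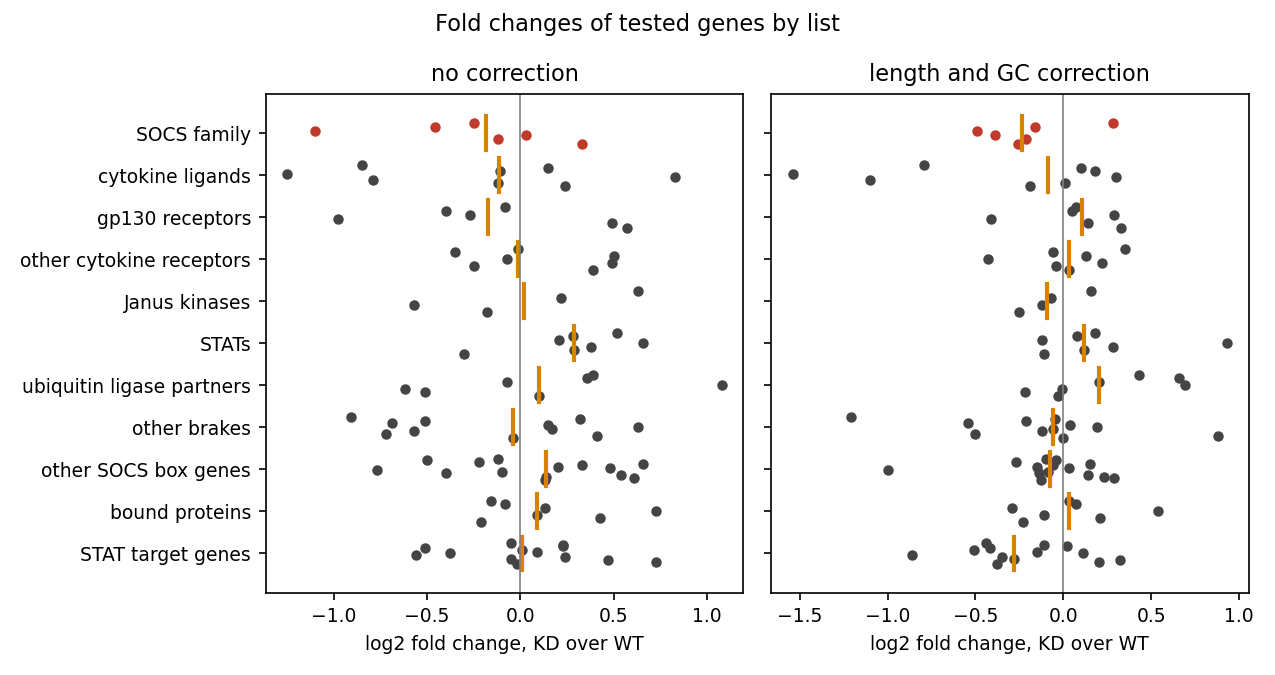
Log2 fold change, KD over WT, of each tested gene (points) of the SOCS family (red) and of 10 pathway lists, with the list median as an orange bar, without correction (left) and with length and GC correction (right). SOCS4 is the lowest SOCS gene in both panels, and the STAT median of 0.29 moved to 0.12.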

How the data were processed

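RNA-seq was deposited as raw counts for each gene. Per the paper's methods, the authors aligned reads to GRCh38 with STAR 2.5.1, removed reads of low mapping quality and duplicates, and counted with htseq-count at default parameters. The kit marks strand, and the annotation is not given in the sources used here. Without molecular identifiers, duplicate removal can also discard separate molecules of dense genes and so compress high counts. The other deposited values are peak positions, called against input with normR on single libraries. Of 23167 identifiers, 23061 matched GENCODE release 44.

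Counts were tested with edgeR 4.0.16 (R 4.3.3): TMM factors of 0.918 to 1.04, filterByExpr, quasi-likelihood test and Benjamini-Hochberg adjustment, without chromosomes 21, 22 and X. The call thresholds of the study were used: fold change over 1.5 at an adjusted p under 0.1. Standard errors came from the F statistic. DESeq2 1.42.0 was an alternative. The correction passed lowess trends (span 0.3) of log2 CPM on exon length and GC to the fit as offsets. Tested on simulated data of 12260 genes whose biological variation was 0.15, edgeR found 83% of log2 changes of 1. Variation in the real libraries was 0.166. The simulated counts held no GC trend, and changes were set only in genes of higher count. The share found thus does not carry over to the real libraries or to genes of low count.

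Members and lists were chosen with earlier results of these data known. Genes named were all members, MACROH2A1, markers, the 5 genes most like SOCS4, and per list the called genes or else the 2 of highest mean CPM. WDHD1, MAPK1IP1L, RMI2, LINC01118, SOCS2-AS1 and MAPKAPK3 were named by position, and CUL5, SH2B3, IL11, CSF2, FOS and CBLB outside the rule. Some genes under this rule are not reported here. The input and promoter capture samples were not used here.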

Additional observations from a re-analysis of the deposited data

How the results depend on the processing

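SOCS4 gets no test and is left out of these calls. Of the other SOCS genes, none was called in the edgeR test or, where it got an adjusted p, in 15 of 16 alternatives. SOCS1 got none in the 3 DESeq2 fits and was not tested in thinned libraries, and SOCS2 got none in DESeq2 on the same genes. The exception was the fit without KD replicate 1, for SOCS1 (1.21) and SOCS5 (-0.60). That fit rests on a single KD library and called the most genes over all genes, so its calls are not particular to these members. SOCS4 stayed negative in all 15 alternatives, from -1.47 to -0.47. These refit all or part of the libraries whose values led to its choice, so the constant sign is no separate support. SOCS4 was -0.49 with the length and GC correction, -0.47 with the replicate block and the correction, and -0.54 in DESeq2 with the correction. Signs turned for SOCS1 (-0.26 with the correction, -0.25 with block and correction, -0.02 in corrected DESeq2, -0.48 without KD replicate 2), for SOCS3 (-0.39, -0.40, -0.29 and -0.14 in the same order) and for SOCS6 (0.28, 0.29 and 0.25 in the first 3). SOCS2 was at 0.04 without WT replicate 1 and at 0.01 without KD replicate 2. With 1 library left out, the range was -0.35 to 0.04 for SOCS2, -0.14 to 0.21 for SOCS3 and -0.48 to 1.21 for SOCS1.

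Pathway calls numbered 0 in the edgeR test, 6 in DESeq2, 14 without the filter, 6 with the correction, 16 with the replicate block, 9 with block and correction, 7 in corrected DESeq2, 8 in DESeq2 with chromosomes 21, 22 and X kept, and 0 to 35 with 1 library left out. Calls over all genes (lower and higher) were 0 and 0 in the edgeR test, 445 and 429 in DESeq2, 1115 and 1024 without the filter, 348 and 240 with the correction, 1137 and 1071 with the replicate block, 470 and 397 with block and correction, 190 and 292 in corrected DESeq2, and 535 and 410 in DESeq2 with those chromosomes kept. With 1 library left out they were 2 to 2424 lower and 0 to 2320 higher, the most without KD replicate 1. The cause was not tested. Both DESeq2 fits other than the uncorrected one on the same genes were added after seeing the data. With only 2 pairs, the replicate numbers were not taken as pairs (the deviations of same-numbered libraries correlated at 0.252 over 10963 genes).

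The WT level of SOCS4 was 1.22 times that of the next member per kb of exon and 0.53 times per kb of gene. Counting only peaks wider than 1 bin left 3 members with an mH2A1.1 peak at the TSS. The depth of KD replicate 2 limits SOCS1 and CISH.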

Other observations

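The 4 pathway genes called by edgeR with length and GC trends removed, beside IL6 and SH2B3, were IL11, CSF2, FOS and CBLB, chosen after their values were seen. The corrected median over the 8 tested ligands was -0.09, and that fit called 5.36% of all genes. IL11, a gp130 ligand, stood at 18.0 and 16.4 CPM in WT and 8.69 and 4.73 CPM in KD, a log2 fold change of -1.25 (edgeR adjusted p = 0.194) and -1.54 with the correction (edgeR adjusted p = 0.0425). CSF2, which encodes GM-CSF, stood at 18.8 and 19.6 CPM in WT and 9.45 and 13.7 CPM in KD, and was at -0.79 (edgeR adjusted p = 0.194) and -1.10 with the correction (edgeR adjusted p = 0.0245). FOS, an immediate-early gene, stood at 180 and 183 CPM in WT and 103 and 145 CPM in KD, and was at -0.56 (edgeR adjusted p = 0.202) and -0.86 with the correction (edgeR adjusted p = 0.0146). For all 3, picked as lower calls of the corrected fit, the KD libraries were below WT, an order that 32.4% of tested genes showed. The correction enlarged the difference, the opposite of its effect on SOCS4. Exon GC was 57.7% for IL11, 50.3% for CSF2 and 53.6% for FOS, against 35.6% for SOCS4. CBLB, a ubiquitin ligase of receptor tyrosine kinases, was the pathway gene called higher with the correction, at 0.88 (edgeR adjusted p = 0.0337), against 0.41 (edgeR adjusted p = 0.288) without.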
